A study of Mus musculus with 20 samples.

Results

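Tissue identity was examined in the control mice of this study, by setting the 5 epidermis libraries of mice that received acetone on the back skin against the 5 pancreas libraries of mice that received phosphate-buffered saline (PBS). These 10 libraries, taken by their group labels, are part of a series of 20. All mice were wild-type. The skin mice were 4 to 6 weeks old when the skin protocol began. They received the acetone vehicle (acetone with olive oil), without the allergen DNFB, 3 times a week for 22 days. The epidermis was isolated from the treated skin. The pancreas mice received PBS into the peritoneum, without caerulein, in 6 hourly injections a day on 3 days a week for 3 weeks. No age is given for the pancreas mice, and nothing in the labels says that each library came from a separate mouse, so p-values measure only the spread between these libraries. The other 10 libraries, from DNFB-treated epidermis and caerulein-treated pancreas, were used to see whether differences between the control tissues were found again in independent libraries.

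The epidermis is a layered epithelium in which basal keratinocytes, held by keratins 5 and 14 and controlled by the transcription factor p63, divide and move outward, switch to keratins 1 and 10 and cornify. The exocrine pancreas consists mainly of acinar cells, which make digestive enzymes and their precursors in very large amounts for secretion into ducts, while scattered islets release insulin and glucagon into the blood. In acinar cells the PTF1 complex, built from Ptf1a, an E protein and Rbpjl, binds a compound site, an E-box followed by a TC-box, near many enzyme genes.

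Between 37.9% and 93.4% of the counts of the Acetone libraries and between 85.1% and 94.3% of those of the PBS libraries lay on 12 satellite-like predicted genes related to Gm10800, which were left out. The counts left per library ranged from 92640 to 1073987 in epidermis and from 69592 to 201611 in pancreas. Acetone libraries 11 and 12 held 1073987 and 938689 of these counts, against at most 152978 in Acetone libraries 1, 2 and 3, so 2 libraries carried most of the depth in epidermis. Levels below are the remaining counts put on the scale of a common library size by edgeR (normalized CPM, always given in the order Acetone 1, 2, 3, 11 and 12 or PBS 7, 8, 15, 16 and 17). The scaling factors (TMM) ran from 0.482 in PBS library 7 to 1.56 in Acetone library 11. A low factor raises every level of its library, so levels in PBS library 7 exceed those scaled by totals alone. For a tissue without counts a floor of 3 counts in each library was used, a mean of 16.4 normalized CPM in epidermis and 31.8 in pancreas. Where a tissue held no counts, the fold was taken against that floor. The floor is set for each library alone and not for the pooled libraries of a tissue, so these folds are cautious lower bounds. They cannot be ranked against the folds of genes with a count in both tissues. Bounds and intervals cover counting error only.

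Of 661 genes with enough counts for a test, 97 were higher in control epidermis (14.7% of those tested) and 67 were higher in control pancreas (10.1%) at an adjusted p under 0.05 (edgeR quasi-likelihood test). At an unadjusted p under 0.05 the numbers were 138 and 97. Over all tested genes the log2 fold change, epidermis minus pancreas, had a median of 0.13, or of 0.63 when libraries were scaled by their totals alone. Among tested genes, the differences called toward pancreas were larger than those toward epidermis. The 67 genes had a median log2 fold change of -8.27 and the 97 genes one of 2.72. These medians depend on the filter, which left 34 of 37 listed cornified layer genes untested. Among them, Krt10 and Krtdap had fitted log2 fold changes of 10.20 and 10.39, without a test. The depth of the pancreas libraries also limits the fold that can be measured toward epidermis. The libraries of both tissues did not overlap for 61 of the 97 genes and 54 of the 67 genes, where 9.98% and 8.32% of all tested genes lay apart in these directions. A gene had to be abundant in several libraries of at least 1 tissue to be tested, so a gene seen in 1 tissue alone entered the test through that tissue. Counts of calls among such genes describe the lists and are no further support for them. In bulk RNA, fewer cells of a type and less RNA per cell cannot be told apart.

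**Figure D1:**
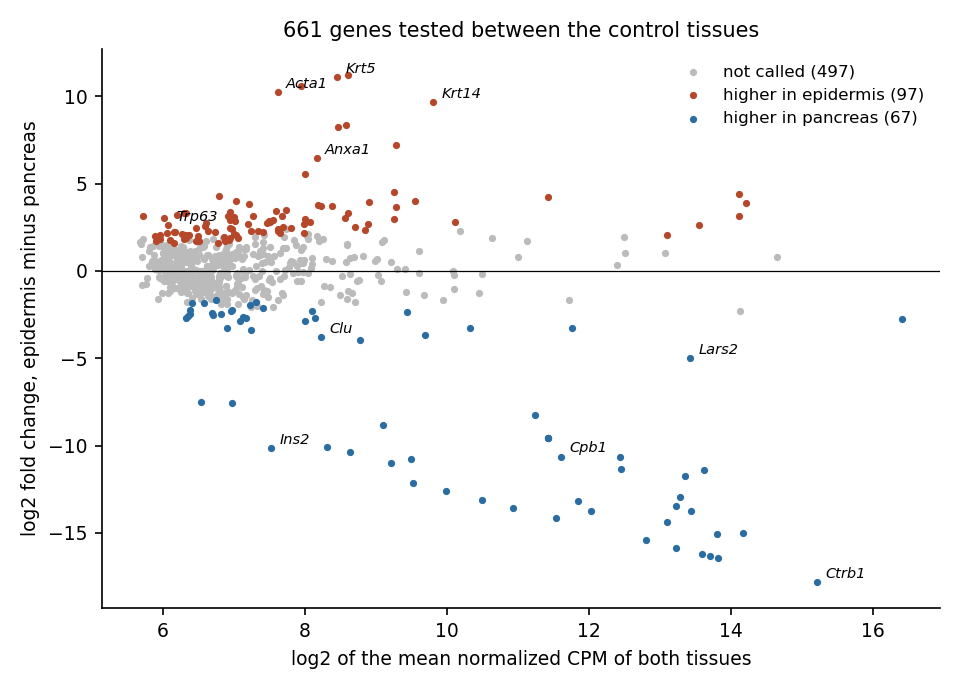
Log2 fold change between control epidermis and control pancreas (vertical axis) against the log2 mean normalized CPM of both tissues (horizontal axis) for 661 tested genes. The 67 genes higher in pancreas (blue) reach much larger differences and levels than the 97 genes higher in epidermis (red), with median differences of -8.27 and 2.72.

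Leaving out 1 library changed how many genes were called. The number of genes that could be tested changed too. Without Acetone library 11 or 12 the genes higher in epidermis fell to 58 of 668 or 62 of 677 tested. Without Acetone library 1 or PBS library 8, 15 or 16 they were 181 of 1179, 181 of 868, 151 of 1172 and 156 of 1147. Without PBS library 15, 16 or 17 only 44, 48 or 41 of the 97 genes were still called higher in epidermis. The genes higher in pancreas varied only between 59 and 98. Krt5, Krt14, Krt15, Perp, Ctrb1, Cpa1, Cela1, Pnlip and Prss2 kept their direction and their call in each of these fits in which they could be tested.

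The largest differences were those of the acinar digestive enzymes. Ctrb1, chymotrypsinogen B (chr8:111686519-111691010 in GRCm38), had 193294, 97327, 30380, 14108 and 43769 normalized CPM in pancreas and 0 counts in every epidermis library. It was at least 4621-fold higher in pancreas (adjusted p = 1.6e-07). Cpa1, carboxypeptidase A1 (chr6:30639218-30645363), stood at 63763, 29649, 9805, 6860 and 12934 normalized CPM in pancreas against 0 counts in epidermis, at least 1500.2-fold apart (adjusted p = 3.06e-07). Pancreatic lipase and its cofactor gave the same picture. Pnlip reached 48452, 23758, 8217, 4648 and 10710 normalized CPM and was at least 1168-fold higher, and Clps, colipase, reached 69655, 28676, 11644, 7872 and 15910 and was at least 1631-fold higher. Neither had a count in epidermis. The trypsinogen Try4, at 75557, 37210, 9395, 7484 and 15257 normalized CPM, was at least 1767-fold higher.

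Some enzymes had single counts in epidermis. Prss2, a trypsinogen (chr6:41521787-41525079), had 72308, 42236, 10387, 4754 and 13598 normalized CPM in pancreas and 12.6 in Acetone library 1, where that level was 1 count, with 0 in the other four. Its log2 fold change was -15.07 ± 1.60 (SE, adjusted p = 3.06e-07). Cela1, pancreatic elastase 1 (chr15:100674421-100687921), had 45511, 26797, 8402, 5036 and 9946 normalized CPM in pancreas and 12.6, 0, 0, 1.8 and 0 in epidermis (log2 fold change -13.45 ± 1.43, adjusted p = 3.06e-07). No pancreas library came near an epidermis library for either gene. The trypsinogen genes of chromosome 6 (Prss2, Try4, Try5 and 2210010C04Rik) lie within 494.8 kb, and the amylase genes of chromosome 3 (Amy2a2, Amy2a3, Amy2a4 and Amy2a5) within 109.5 kb. Both are groups of related copies. How reliably reads were divided among the copies was not tested, so the value of each single copy is uncertain. Amy2a2, Amy2a3 and Amy2a4 each had the same 2885 counts in pancreas and 15 in epidermis, so their calls are not separate. Amy2a5 had 14013 counts in pancreas.

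Of the 29 digestive enzyme genes listed, 24 passed the filter on low counts and all 24 were higher in pancreas. The 24 include Amy2a2, Amy2a3 and Amy2a4, which hold the same counts. Their median log2 fold change was -13.14, and -10.73 with the genes absent from epidermis set to their bound. In epidermis 12 of the 29 had no count in any library. The whole list summed to between 84251 and 953801 normalized CPM in pancreas and between 17.4 and 140.1 in epidermis. Per kilobase of exon, the mean level in pancreas was highest for Ctrb1 at 86305 normalized CPM, followed by Clps at 43783, Try4 at 36180 and Prss2 at 35161, and was 8300 for Cela1. The ranges of Try4, Clps and Prss2 over the libraries overlapped, and their order within each library was not tested.

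The second acinar list, of 25 accessory proteins, had 10 tested members and all 10 were higher in pancreas, with a median log2 fold change of -10.54 (-9.29 at the bounds). Sycn, syncollin, a protein of zymogen granules, had 94385, 33326, 17109, 12955 and 25668 normalized CPM in pancreas and 0, 0, 5.84, 0.599 and 0 in epidermis (log2 fold change -15.02 ± 1.37, adjusted p = 1.51e-07). Zg16, another zymogen granule protein, had 37100, 15828, 5928, 3930 and 8530 normalized CPM in pancreas and no count in epidermis, at least 869.7-fold apart. Reg1, a regenerating protein secreted by acinar cells, had 9244, 5461, 1495, 847 and 2445 normalized CPM and was at least 237.7-fold higher. At lower levels, Spink1, which inhibits trypsin, had 1985, 866, 437, 282 and 431 normalized CPM in pancreas and 1 count in epidermis (log2 fold change -10.34 ± 1.24, adjusted p = 1.23e-06). Nupr1, a stress-responsive gene, had the smallest difference of the 10 tested members, at 2129, 866, 449.9, 318 and 387 normalized CPM in pancreas against 12.6, 113, 40.9, 50.3 and 45.1 in epidermis (log2 fold change -3.97 ± 0.87, adjusted p = 0.00169). Spink1 and Nupr1 were named after their values were seen.

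The acinar transcripts took very different shares of the pancreas libraries. The 54 genes of both acinar lists made up 54.4% and 44.7% of the counts outside the satellite-like genes in PBS libraries 7 and 8, and 19.8%, 11.6% and 25.2% in PBS libraries 15, 16 and 17. In epidermis they made up 0.0302% to 0.0569%, which was 1055 counts over 5 libraries. For Ctrb1, Cpa1, Cela1, Pnlip and Prss2 alike, PBS library 7 was the highest, PBS library 8 next and PBS library 16 the lowest, so the enzymes rose and fell together from library to library. Libraries 7 and 8 also had more usable counts than libraries 15, 16 and 17.

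**Figure D2:**
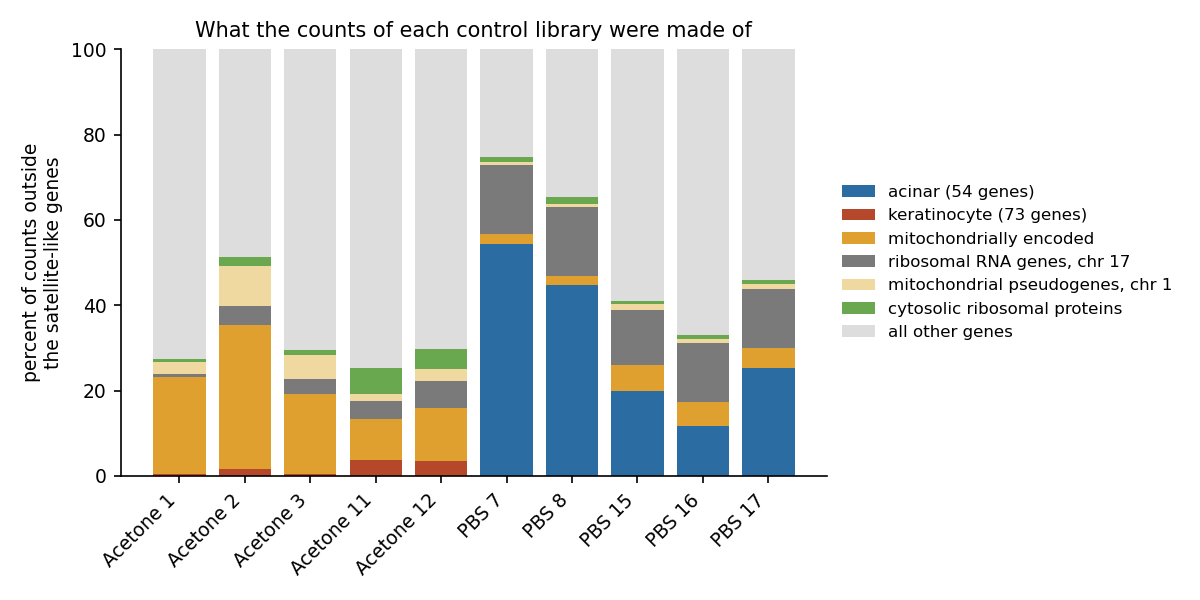
Share of counts outside the satellite-like genes (percent, vertical axis) taken by 6 groups of genes in each control library. Acinar genes take 11.6% to 54.4% of the PBS libraries and at most 0.0569% of the Acetone libraries, and mitochondrial genes take 9.62% to 33.8% of the Acetone libraries and 2.16% to 6.13% of the PBS libraries.

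The windows upstream of the acinar genes were read for the E-box and the TC-box. RefSeq promoter windows (GRCm38.p6) were found for 26 of the 34 acinar genes that were higher in pancreas. The E-box CACCTG, on either strand (the other strand reads CAGGTG), was found within 250 bases upstream of the start in 12 of these 26, among them Cel, Cpb1, Cela3b, Cela2a, Try4, Prss2, Ctrl and Cela1, which is 46.2% against 17.2% of all 32851 windows. The TC-box, spelled TTTCCC and also read on both strands, was found in 8 of 26, or 30.8% against 21.9%. Of the genes higher in epidermis, 74 had at least 1 window, and 12.4% of their 89 windows held CACCTG and 25.8% held TTTCCC. In Cela1 the TC-box began 10 bases after the start of the E-box, on the same strand. The pair of boxes at this spacing, on either strand, was in 0.0122% of all windows and in no other acinar window. A match is a description of the letters, not a bound site. The upstream 250 bases are shown for 4 pancreatic genes, with and without a match, and for the basal keratins, with both motifs, on either strand, in capitals.
Cela1 (chr15:100687921-100688170, minus strand): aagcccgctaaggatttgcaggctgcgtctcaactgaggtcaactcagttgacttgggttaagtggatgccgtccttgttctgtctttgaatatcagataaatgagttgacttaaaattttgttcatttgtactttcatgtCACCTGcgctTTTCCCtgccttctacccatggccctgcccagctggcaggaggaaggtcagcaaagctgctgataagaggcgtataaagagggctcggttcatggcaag
Prss2 (chr6:41521526-41521775, plus strand): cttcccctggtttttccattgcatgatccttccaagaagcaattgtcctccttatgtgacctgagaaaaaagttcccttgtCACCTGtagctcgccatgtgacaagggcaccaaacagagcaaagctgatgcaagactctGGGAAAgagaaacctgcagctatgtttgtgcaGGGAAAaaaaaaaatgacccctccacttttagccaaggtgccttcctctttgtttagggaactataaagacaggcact
Cela2a (chr4:141826006-141826255, minus strand): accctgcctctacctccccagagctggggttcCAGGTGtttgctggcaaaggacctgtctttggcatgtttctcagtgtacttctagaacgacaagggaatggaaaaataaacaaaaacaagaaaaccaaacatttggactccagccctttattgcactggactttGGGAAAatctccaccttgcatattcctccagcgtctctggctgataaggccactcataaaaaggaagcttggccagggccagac
Ctrb1 (chr8:111691011-111691260, minus strand): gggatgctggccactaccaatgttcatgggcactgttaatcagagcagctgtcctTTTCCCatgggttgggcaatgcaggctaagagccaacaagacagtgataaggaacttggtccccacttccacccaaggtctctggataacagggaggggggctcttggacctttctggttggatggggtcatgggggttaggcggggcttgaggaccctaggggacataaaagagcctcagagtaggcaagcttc
Krt5 (chr15:101712906-101713155, minus strand): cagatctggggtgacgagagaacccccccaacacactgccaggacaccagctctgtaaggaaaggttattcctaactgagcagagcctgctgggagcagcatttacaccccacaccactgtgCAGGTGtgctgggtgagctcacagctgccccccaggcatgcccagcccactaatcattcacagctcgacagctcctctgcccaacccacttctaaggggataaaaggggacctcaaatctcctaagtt
Krt14 (chr11:100206031-100206280, minus strand): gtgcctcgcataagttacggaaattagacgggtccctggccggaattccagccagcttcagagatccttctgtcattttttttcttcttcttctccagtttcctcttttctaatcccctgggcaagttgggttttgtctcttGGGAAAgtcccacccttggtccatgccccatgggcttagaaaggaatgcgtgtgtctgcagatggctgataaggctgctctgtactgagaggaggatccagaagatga
Cela1, Prss2 and Cela2a carried both motifs, Ctrb1 carried the TC-box alone, Krt5 the E-box alone and Krt14 the TC-box alone. Ctrb1, the gene with the largest fold, therefore had no CACCTG in this window.

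The regulators of acinar cells were detected at low levels. Rbpjl, a subunit of PTF1, had 576, 221, 66.2, 106 and 88.5 normalized CPM in pancreas and 101, 15, 5.84, 10.8 and 10.7 in epidermis. The lowest pancreas library lay below the highest epidermis library, and the log2 fold change was -3.28 ± 0.83 (adjusted p = 0.00569). Bhlha15 (Mist1), which maintains the secretory architecture of acinar cells, was too low for the fit, with 185, 134, 26.5, 47.1 and 66.4 normalized CPM in pancreas and 25.3, 0, 0, 0.599 and 0 in epidermis. All 5 pancreas libraries were higher (2-sided exact permutation test, p = 0.00794, the smallest that 5 against 5 libraries allow, adjusted p = 0.0132 over 10 markers so tested). Ptf1a itself had 3 counts over all pancreas libraries and 1 in epidermis (exact permutation p = 0.524), so a difference was not detectable at this depth. Gata6, which takes part in pancreatic development, had 30.8, 53.7, 13.2, 35.3 and 22.1 normalized CPM in pancreas and 50.5, 7.5, 5.84, 0.599 and 4.59 in epidermis, was not tested and overlapped. Rbpjl was the only tested member of the 20 listed pancreatic transcription factors.

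Few endocrine and duct genes were abundant enough for a test. Ins2, insulin 2 (chr7:142678656-142743381), had 843, 255, 344, 235 and 166 normalized CPM in pancreas and no count in epidermis, at least 22.5-fold apart (adjusted p = 2.37e-06). Ins1, insulin 1, had 144, 53.7, 106, 82.4 and 77.4 normalized CPM against a single count in epidermis (exact permutation p = 0.00794, adjusted p = 0.0132). Gcg, glucagon, had 2 counts in pancreas and 1 in epidermis (exact permutation p = 1), which gives no difference at this depth. Ero1lb, an oxidase that helps fold proinsulin, had 247, 114, 106, 47.1 and 66.4 normalized CPM in pancreas and 75.8, 52.5, 35, 12.6 and 13 in epidermis, and was not tested. Ins2 was the only one of 24 islet genes to pass the filter.

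Of the 20 genes of ducts and simple epithelia 1 was tested. Clu, clusterin, a secreted chaperone (chr14:65968483-65981547), had 1224, 557, 265, 329 and 420.4 normalized CPM in pancreas and 75.8, 37.5, 23.4, 42.5 and 31.4 in epidermis (log2 fold change -3.77 ± 0.78, adjusted p = 0.000927). No library of either tissue overlapped. Krt18, a keratin of simple epithelia that acinar and duct cells share, had 92.5, 40.3, 39.7, 11.8 and 55.3 normalized CPM in pancreas and 1 count in epidermis (exact permutation p = 0.00794, adjusted p = 0.0132). Its partner Krt8 had 61.7, 121, 0, 0 and 66.4 against 0, 7.5, 0, 0 and 1.53 (exact permutation p = 0.167, adjusted p = 0.208). The duct keratin Krt19 had 3 counts in pancreas and 2 in epidermis (exact permutation p = 0.167, adjusted p = 0.208), and 2 of the 5 pancreas libraries had none. Muc1, a mucin of apical membranes, had 473, 195, 79.4, 47.1 and 99.6 normalized CPM in pancreas and 1 count in epidermis, without a test.

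Most genes of the general secretory pathway were too low for a test. Of 35 genes for chaperones and transport in the endoplasmic reticulum 8 were tested, 1 was higher in pancreas, near the 10.1% of all tested genes, and none was called higher in epidermis, with a median log2 fold change of -0.40. The one, Rrbp1, a ribosome receptor of the rough endoplasmic reticulum, had 411, 275, 92.6, 153 and 111 normalized CPM in pancreas against 25.3, 30.01, 70.1, 39.5 and 48.2 in epidermis (log2 fold change -2.26 ± 0.60, adjusted p = 0.00809), and lost its call without Acetone library 2 (-2.23, adjusted p = 0.0654). P4hb, protein disulfide isomerase, stood at 1080, 892, 265, 306 and 387 normalized CPM in pancreas and 25.3, 135, 58.4, 334 and 372 in epidermis (log2 fold change -1.63 ± 0.81, adjusted p = 0.149). Hspa5 (BiP) stood at 154, 215, 26.5, 58.8 and 55.3 in pancreas and 152, 308, 81.7, 435 and 338 in epidermis (log2 fold change 1.35 ± 0.70, adjusted p = 0.172). Pdia3, another disulfide isomerase, was at 10.3 to 80.5 normalized CPM in pancreas and 12.6 to 321 in epidermis, and was not tested.

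In epidermis keratin genes had the largest differences, the suprabasal Krt77 and the basal Krt5 among them. Krt5, keratin 5 (chr15:101707070-101712898), had 227, 413, 146, 1082 and 1651 normalized CPM in epidermis and no count in any pancreas library. It was at least 22.1-fold higher in epidermis (adjusted p = 5.22e-05). Krt14, keratin 14 (chr11:100203162-100207548), its partner, had 303, 1695, 292, 2458 and 4200 normalized CPM in epidermis and 1 count in PBS library 8 (log2 fold change 9.66 ± 1.39, adjusted p = 1.12e-05). Krt15, a keratin of basal and bulge cells that lies near Krt14 on chromosome 11, had 164, 968, 204, 908 and 1589 normalized CPM in epidermis and 1 count in PBS library 7 (log2 fold change 8.35 ± 1.27, adjusted p = 2.26e-05). All epidermis libraries lay far above all pancreas libraries for these 3 keratins, and within epidermis libraries 1 and 3 were the lowest.

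Perp, a p63 target needed for desmosomes, had 379, 1455, 228, 2073 and 2047 normalized CPM in epidermis and at most 22.1 in pancreas (log2 fold change 7.20 ± 1.15, adjusted p = 4.59e-05). Trp63, which encodes p63, was much lower, at 88.4, 158, 70.1, 129.9 and 132 normalized CPM in epidermis and 0, 20.1, 52.9, 0 and 22.1 in pancreas (log2 fold change 2.65 ± 0.68, adjusted p = 0.00617). It varied less among the epidermis libraries than the keratins did, its lowest pancreas values were 0 and its groups did not overlap. With label numbers 1 to 10 alone its call was lost (2.41, adjusted p = 0.165). Of the 15 basal genes listed 6 were tested and 5 were higher in epidermis, with a median log2 fold change of 7.78. The exception, Dst, did not pass the threshold. The 73 genes of the basal, suprabasal and hair follicle lists that were matched made up 0.394%, 1.56%, 0.391%, 3.68% and 3.40% of the counts outside the satellite-like genes in epidermis and 0.0248% to 0.0996% in pancreas, so the share was highest in the deep libraries 11 and 12.

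**Figure D3:**
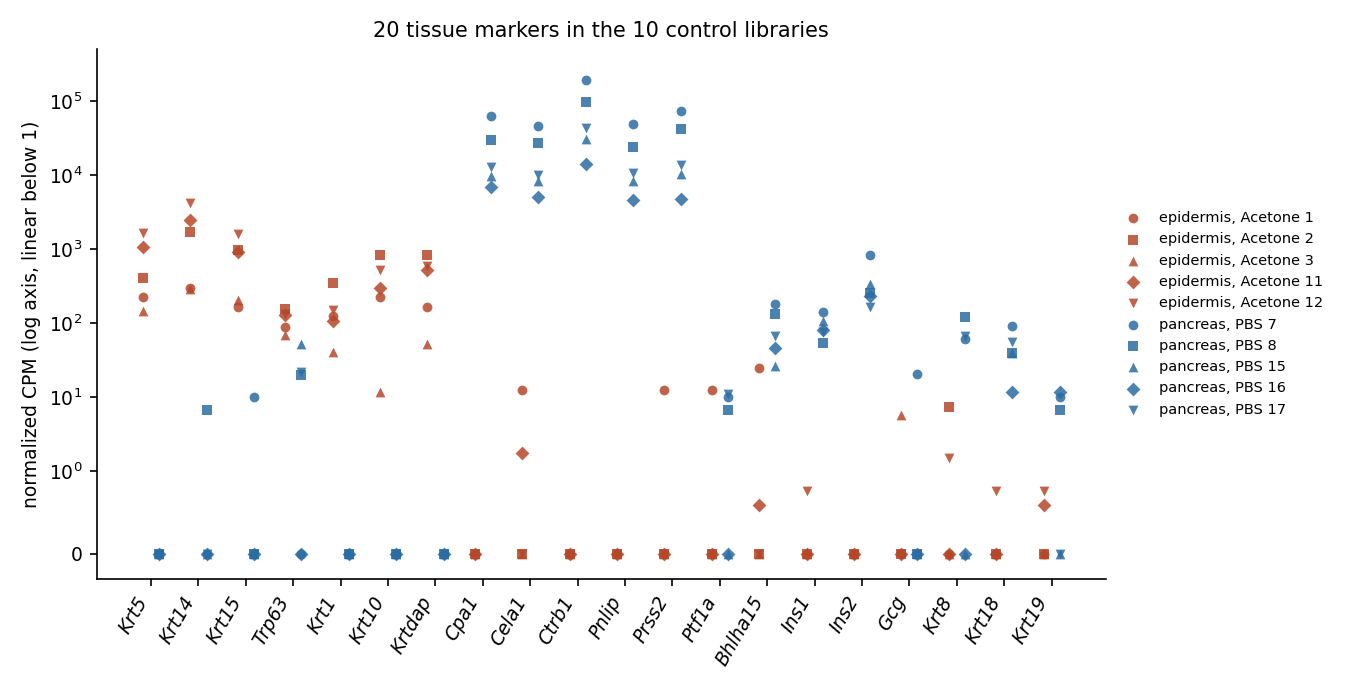
Normalized CPM (log axis, linear below 1) of 20 tissue markers in each control library, with epidermis in red, pancreas in blue and a marker shape for each library. Krt5 to Krtdap are high in epidermis, Cpa1 to Prss2 are high in every PBS library, and Ptf1a, Gcg and Krt19 are near 0 in both tissues.

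Markers of the suprabasal and cornified layers were present throughout the epidermis libraries, but at uneven levels. Krt77, a suprabasal keratin (chr15:101858731-101869705, near Krt5), had 189, 570.1, 87.6, 1291 and 1760 normalized CPM in epidermis and none in pancreas, at least 24.5-fold apart (adjusted p = 7.46e-05). Ly6d, a surface protein of stratified epithelia, had 114, 1058, 99.2, 602 and 596 normalized CPM against none, at least 15.5-fold apart (adjusted p = 6.14e-05). Dsp, desmoplakin, which ties keratins to desmosomes, had 215, 803, 146, 741 and 611 in epidermis and at most 22.1 in pancreas (log2 fold change 5.54 ± 0.99, adjusted p = 0.000183). These 3 were the tested ones among 37 listed genes, and 15 of the 37 had no count in pancreas.

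The early differentiation markers did not pass the filter on low counts. Krt10 had 227, 833, 11.7, 304 and 519 normalized CPM in epidermis, Krt1 had 126, 345, 40.9, 107 and 152, and Krtdap, a secreted keratinocyte differentiation protein, had 164, 833, 52.5, 518 and 587. None had a count in pancreas, so all 3 were higher in every epidermis library (exact permutation p = 0.00794 and adjusted p = 0.0132 for each), by at least 11.9-fold, 4.85-fold and 13.5-fold. Acetone library 3 was the lowest for all 3 genes, and for Krt10 it lay within the floor. Calm4, a calmodulin-like protein of differentiating keratinocytes, had 152, 863, 23.4, 462 and 455 normalized CPM in epidermis and none in pancreas. Per kilobase of exon, Krt14 was the highest of these genes in epidermis at 1018 normalized CPM, followed by Ly6d at 664, Krtdap at 635 and Perp at 633, an order that the spread between libraries does not resolve.

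The annexins Anxa8 and Anxa1, calcium-dependent membrane-binding proteins, were also among the larger differences toward epidermis. Anxa8 had 88.4, 615, 99.2, 1085 and 1646 normalized CPM in epidermis and 1 count in pancreas (log2 fold change 8.22 ± 1.35, adjusted p = 6.05e-05). Anxa1, named after its values were seen, had 265, 848, 128, 742 and 861 in epidermis and at most 13.2 in pancreas (log2 fold change 6.48 ± 1.04, adjusted p = 4.59e-05). Elovl4, which elongates very long chain fatty acids, had 88.4, 360.1, 128, 229 and 251.6 normalized CPM in epidermis and 20.6, 0, 0, 23.5 and 11.1 in pancreas (log2 fold change 4.31 ± 0.80, adjusted p = 0.000275), and Elovl6, another elongase, 101, 293, 134, 117 and 91 against 20.6, 13.4, 0, 35.3 and 0 (log2 fold change 3.34 ± 0.70, adjusted p = 0.00115). Both were named after their values were seen.

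Of the sebaceous gland list, 2 of 14 genes were tested and both were called higher in epidermis, though neither held when libraries were left out. Soat1, which esterifies cholesterol, had 114, 143, 70.1, 92.2 and 76.5 normalized CPM in epidermis and 0, 67.1, 26.5, 11.8 and 22.1 in pancreas (log2 fold change 1.80 ± 0.63, adjusted p = 0.0398), and Far2, which makes fatty alcohols for wax, 114, 165, 75.9, 47.9 and 78.8 against 20.6, 13.4, 13.2, 0 and 66.4 (log2 fold change 2.03 ± 0.68, adjusted p = 0.0319). Soat1 was no longer called without Acetone library 1, 2 or 3 or PBS library 7, 15, 16 or 17 (1.33 to 1.68, adjusted p from 0.0654 to 0.178), and Far2 was no longer called without Acetone library 1 or 2 or PBS library 7, 8, 15 or 16 (1.41 to 1.87, adjusted p from 0.0733 to 0.165). Among untested members, the desaturase Scd1 had 63.1 to 330.4 normalized CPM in epidermis and 0 to 58.8 in pancreas, Mgst1, a glutathione transferase, 63.1 to 165 against 0 to 20.1, and Elovl3 11.7 to 135 against none.

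Hair follicle and pigment cell genes were concentrated in the deep libraries. Krt71, a keratin of the inner root sheath, had 0, 0, 99.2, 1753 and 589 normalized CPM in epidermis, and Krt17, a follicle keratin, 75.8, 105, 87.6, 1176 and 1205, so that libraries 11 and 12 exceeded the other 3 in both. Defb6, a defensin, had 37.9, 45, 0, 107 and 128 normalized CPM. The melanosome genes Pmel and Tyrp1 had 0, 0, 46.7, 365 and 131 and 0, 0, 40.9, 170.0 and 77.2 normalized CPM, with none in libraries 1 and 2, whereas Dct, which acts in the same pathway, had 101, 22.5, 81.7, 226 and 91. In pancreas none of these genes passed 35.3 normalized CPM. Of the 22 follicle genes 1 was tested and did not pass, and none of the 10 melanocyte genes was tested. The part of depth in these differences was not tested.

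Epidermal transcription factors were low, and none of the 20 listed was called. Gata3 had 12.6, 165, 46.7, 396 and 545 normalized CPM in epidermis and 0, 0, 26.5, 0 and 11.1 in pancreas. Ovol1 had 11.7 to 248 in epidermis against 0 to 13.2, and Klf4, which promotes barrier formation, 5.84 to 117 against 0 to 47. All 3 overlapped between the tissues.

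Markers of other cell types were measured in both tissues. The skeletal muscle list summed to between 524 and 1320 normalized CPM in epidermis and between 0 and 41.1 in pancreas, and 5 of its 11 genes had no count in pancreas. Acta1, skeletal muscle actin (chr8:123891769-123894751), had 239.9, 495, 496, 224 and 512 normalized CPM in epidermis and none in pancreas, at least 12.4-fold apart (adjusted p = 1.37e-05), and Tnnc2 and Mylpf, of fast muscle fibres, had 35.9 to 315 and 50.5 to 113 against none. All 5 epidermis libraries held these transcripts, so they were not the property of 1 library. Mouse back skin lies on a sheet of skeletal muscle, and whether muscle was carried over was not tested.

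Fibroblast genes did not separate the tissues, with 1 of 6 tested called higher in epidermis, where 14.7% of all tested genes were. Of 14 listed, 6 were tested and only Gsn, gelsolin, which many cell types express, was called, at 189, 593, 175, 2002 and 4097 normalized CPM in epidermis and 41.1, 168, 39.7, 129 and 55.3 in pancreas (log2 fold change 4.01 ± 1.01, adjusted p = 0.00569). Its call was lost with label numbers 1 to 10 alone (0.91, adjusted p = 0.743), with depth as a covariate (1.95, adjusted p = 0.0564) and with Acetone libraries 1, 2 and 3 alone (1.99, adjusted p = 0.134). Dcn, decorin, had 0, 293, 58.4, 487 and 472 against 51.4, 658, 159, 94.1 and 99.6 (log2 fold change 0.31 ± 0.90, adjusted p = 0.835), and Sparc, a matrix protein, 25.3, 240.0, 87.6, 120.3 and 132 against 41.1, 1188, 52.9, 70.6 and 99.6 (log2 fold change -1.27 ± 0.88, adjusted p = 0.311). PBS library 8 was the highest pancreas library for both matrix genes.

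None of the listed Langerhans cell, macrophage or epidermal T cell genes was called. Langerhans cells are the antigen-presenting cells of the epidermis, and of their 10 listed genes 3 were tested and none was called. Lyz2, lysozyme, had 75.8, 135, 35, 1267 and 1485 normalized CPM in epidermis and 30.8, 503, 39.7, 23.5 and 33.2 in pancreas. Cst3, cystatin C, had 63.1 to 719.7 against 70.6 to 463 (log2 fold change 0.68 ± 0.80, adjusted p = 0.579), and Cd74, the invariant chain, 23.4 to 811 against 44.3 to 153. Of the macrophage complement genes, C1qa had 0, 0, 0, 144 and 244 normalized CPM in epidermis and 0, 168, 39.7, 141 and 0 in pancreas, C1qb ran with it at 23.4 to 369 and 0 to 315, and the protease Ctss had 0 to 172 and 0 to 33.5. None of 12 macrophage genes, 10 matched epidermal T cell genes (Fcer1g 5.84 to 98.7 against 0 to 121, Cd3g 5.84 to 63.1 against 0 to 23.5, Thy1 4.19 to 37.9 against 0 to 35.3), 12 endothelial genes (Cldn5 3.82 to 30.01 against 0 to 23.5, Pecam1 4.19 to 37.9 against 10.3 to 33.2, Vwf 0.765 to 139 against 10.3 to 52.9), 10 smooth muscle genes (Tpm2 27.5 to 82.5 against 0 to 47, Myl9 0 to 25.3 against 0, Acta2 4.59 to 18 against 0 to 47) or 9 adipocyte genes (Car3 63.1 to 300.1 against 0 to 44.3, Cfd 0 to 60.01 against 0 to 13.4, Retn 0 to 35 against 0 to 10.3) was tested.

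Ighm, the heavy chain of IgM, had 92.5, 369, 119, 377 and 443 normalized CPM in pancreas and 12.6, 7.5, 0, 41.3 and 53.5 in epidermis (log2 fold change -3.36 ± 0.78, adjusted p = 0.00283), and was the tested member of 9 B and plasma cell genes. Igkc, the kappa light chain, had 51.4, 127, 39.7, 459 and 266 normalized CPM in pancreas and no count in epidermis, at least 11.5-fold apart, without a test, and Iglc2, a lambda chain, 0 to 33.2 against 0 to 0.765. The list summed to 164 to 977 in pancreas and 22.5 to 101 in epidermis, with no overlap.

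Of the 6 erythrocyte genes 4 were tested and the 2 alpha globin genes were higher in pancreas, where 10.1% of all tested genes were. Hba-a2 had 4524, 3180, 14251, 5530 and 3872 normalized CPM in pancreas and 164, 713, 1728, 176 and 432 in epidermis (log2 fold change -3.29 ± 0.88, adjusted p = 0.0086). Hba-a1 had 1943, 919, 5399, 1930 and 1471 against 0, 443, 589.7, 68.8 and 108 (log2 fold change -3.27 ± 1.02, adjusted p = 0.0208), and lost its call without Acetone library 2, 11 or 12 or PBS library 15 (-3.62 to -2.87, adjusted p from 0.0548 to 0.0743). The copies are nearly identical. The beta globin Hbb-bs had 298, 322, 939, 306 and 199 in pancreas and 227, 885, 1390, 179.6 and 328 in epidermis (log2 fold change 0.55 ± 0.79, adjusted p = 0.66).

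**Figure D4:**
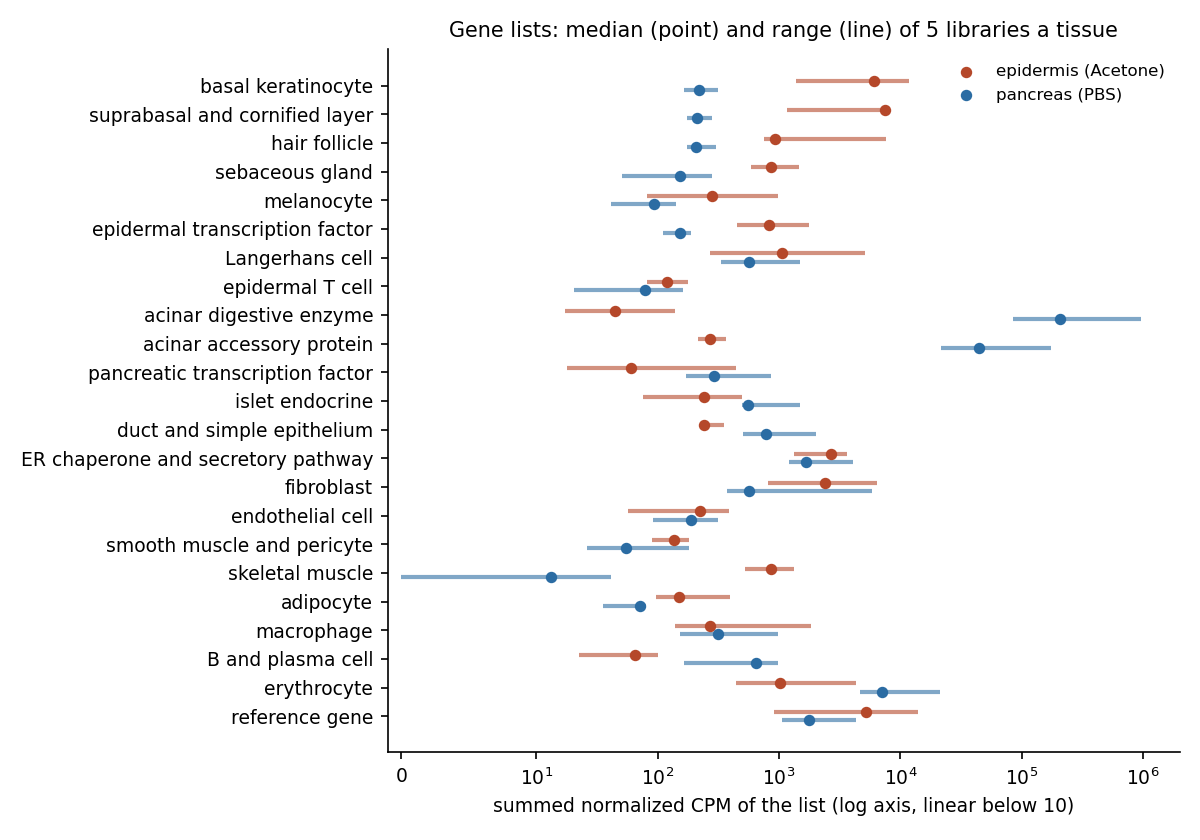
Summed normalized CPM (log axis, linear below 10) of each of 23 gene lists, as the median (point) and range (line) of 5 libraries of control epidermis (red) and 5 of control pancreas (blue). The 2 acinar lists are farthest apart, the keratinocyte, hair follicle, sebaceous, epidermal transcription factor, skeletal muscle and adipocyte lists are higher in epidermis without overlap, the duct, islet, B and plasma cell and erythrocyte lists are higher in pancreas without overlap, and the fibroblast, Langerhans cell, macrophage, endothelial and secretory pathway lists overlap.

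Genes active in most cells were listed for reference. Of the 15 reference genes listed 7 were tested and 3 were called, all higher in epidermis (Eef1a1, Tubb5 and Ppia), with a median log2 fold change of 1.65. Eef1a1, a translation elongation factor, had 139, 1448, 403, 4103 and 3615 normalized CPM in epidermis and 422, 456, 106, 94.1 and 299 in pancreas (log2 fold change 2.81 ± 0.94, adjusted p = 0.0326). Its libraries overlapped, and the call was lost without Acetone library 2, 11 or 12 or PBS library 7, 15, 16 or 17 (2.14 to 3.01, adjusted p from 0.0594 to 0.138). Rplp0, a ribosomal protein, had 12.6, 615, 309, 2333 and 2077 against 802, 798, 357, 188 and 288 (log2 fold change 1.14 ± 0.93, adjusted p = 0.401), and B2m 37.9 to 912 against 0 to 73.8, untested. Counted after the values were seen, 9 of 61 tested cytosolic ribosomal protein genes were higher in epidermis and 1 in pancreas, where 14.7% and 10.1% of all tested genes were, so the share toward epidermis was near that of all genes. Their share of the counts was 4.70% and 6.05% in Acetone libraries 12 and 11 and 0.545% to 2.16% in the other 8 control libraries.

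Mitochondrial and ribosomal RNA differed between the tissues. Mitochondrially encoded genes took 9.62% to 33.8% of the remaining counts in epidermis and 2.16% to 6.13% in pancreas, and ribosomal RNA genes of chromosome 17 took 0.627% to 6.27% and 12.9% to 16.2%. Neither range overlapped (2-sided exact permutation test, p = 0.00794 each, adjusted p = 0.0198 over 5 library measures). For the share of satellite-like genes, the share of ribosomal protein genes and the usable depth the exact permutation p was 0.143, 0.175 and 0.183. Of 14 tested mitochondrial genes 5 were called higher in epidermis, where 14.7% of all tested genes were. mt-Atp6, an ATP synthase subunit, had 70002, 61497, 24217, 7668 and 5976 normalized CPM in epidermis and 1769, 778, 2368, 2012 and 918 in pancreas (log2 fold change 4.43 ± 0.86, adjusted p = 0.000447), and mt-Nd1, a complex I subunit, 57222, 66080, 32093, 8411 and 13060 against 2098, 1302, 3255, 2530 and 2711 (log2 fold change 3.89 ± 0.77, adjusted p = 0.000576). Within epidermis libraries 11 and 12, the highest for Krt5 and Krt14, were the lowest for both. Their part in the other results was not tested. With these genes, Lars2 and mitochondrial pseudogenes of chromosome 1 left out, 69 and 51 genes were called among 491.

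The inflamed tissues gave an independent set of libraries of the same tissues. Their treatments, DNFB and caerulein, differ as well, so tissue and treatment cannot be told apart in this contrast. Between DNFB epidermis and Caerulein pancreas 6531 genes were tested and 4.93% were called, of which 100 were higher in epidermis (1.53%) and 222 in pancreas (3.4%). Of the 67 genes higher in control pancreas 62 could be tested there, 59 had the same sign and 41 were called in the same direction (66.1%). Of the 97 genes higher in control epidermis 95 could be tested, 73 had the same sign and 12 were called again (12.6%). None was called in the opposite direction. Over the 62 genes the median log2 fold change was -8.55 in the controls and -6.33 between the inflamed tissues, and over the 95 genes it was 2.69 and 0.51.

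The 12 epidermis genes seen again were 6 members of the keratinocyte lists (Krt5, Krt14, Krt15, Perp, Dsp and Ly6d), Acta1, Far2, Elovl4, the gap junction gene Gja1, mt-Nd1 and mt-Atp6. Krt5 had a log2 fold change of 10.48 between the inflamed tissues (adjusted p = 0.000131), Krt14 of 9.52 (adjusted p = 6.76e-05), Krt15 of 6.47 (adjusted p = 9.71e-05), Acta1 of 8.29 (adjusted p = 5.9e-05) and Elovl4 of 5.26 (adjusted p = 0.000131). The annexins were not seen again. Anxa1 had a log2 fold change of 0.13 (adjusted p = 0.967), with 171 to 593 normalized CPM in DNFB epidermis and 20.1 to 734 in Caerulein pancreas, and Anxa8 of 1.84 (adjusted p = 0.377). Krt77 could not be tested there, at 0 to 14.2 normalized CPM in DNFB epidermis and 0 to 1.82 in Caerulein pancreas. Of the 9 ribosomal protein genes higher in control epidermis none was among the calls of the inflamed tissues.

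Between the inflamed tissues 37 acinar genes were tested and 35 were called higher in pancreas. Ctrb1 had a log2 fold change of -10.29 (adjusted p = 0.000619), Cpa1 of -9.30 (adjusted p = 0.000296), Cela1 of -9.88 (adjusted p = 9.5e-05) and Ins2 of -8.77 (adjusted p = 9.88e-05). Ctrb1 had 2716 to 39126 normalized CPM in Caerulein pancreas, values that were scaled in a separate fit. Several core markers too low for the control comparison were called between the inflamed tissues, namely Krt1 (5.79, adjusted p = 0.00168), Krt10 (5.55, adjusted p = 0.00323), Krtdap (9.33, adjusted p = 0.000136), Ins1 (-7.92, adjusted p = 9.5e-05), Krt8 (-8.89, adjusted p = 0.000362), Krt18 (-7.85, adjusted p = 9.88e-05) and Krt19 (-5.69, adjusted p = 0.000131). Trp63 had 2.41 there (adjusted p = 0.0529).

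**Figure D5:**
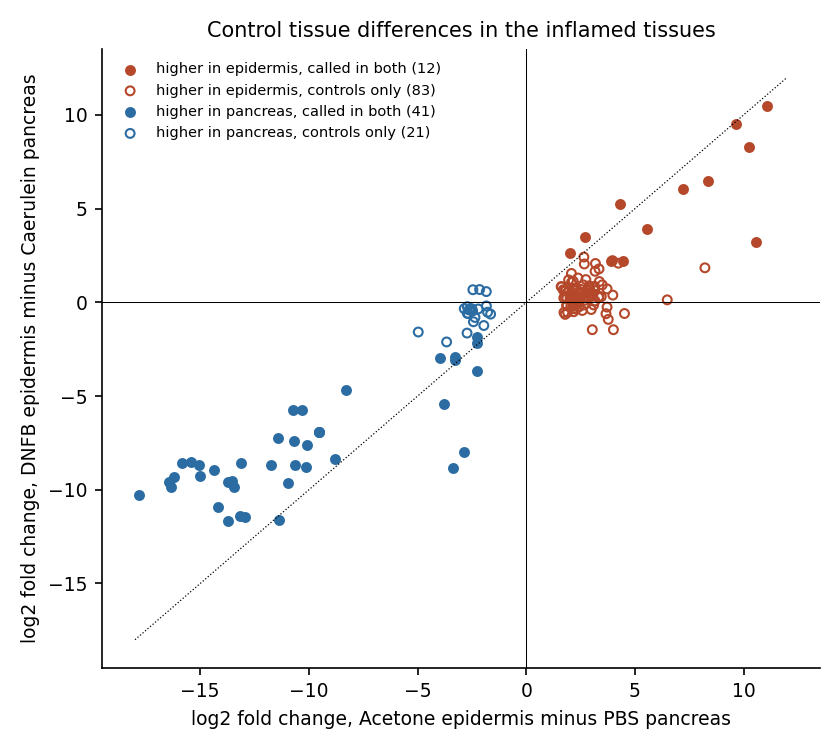
Log2 fold change between DNFB epidermis and Caerulein pancreas (vertical axis) against that between Acetone epidermis and PBS pancreas (horizontal axis) for the genes called in the controls, with filled points for those called in both and a dotted line of equality. Of the genes higher in pancreas 41 of 62 are filled, and of those higher in epidermis 12 of 95.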

How the data were processed

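RNA was sequenced with Smart-Seq2, which amplifies whole transcripts without molecular identifiers. The submitters' processing notes name STAR 2.5.3, RSEM 1.3.1 and DESeq2 1.24.0, and the authors deposited expected counts per gene for 20 libraries on GRCm38, without normalization. Of 55471 gene identifiers 55230 matched the GENCODE M21 annotation. The counts were rounded (94.7% of values were whole within 1e-09). Genes of which at least 50% of the 15-base words were shared with Gm10800-like satellite sequence (12 genes) were left out before library sizes were set.

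The 5 Acetone and 5 PBS libraries, grouped by label, were fitted with edgeR 4.0.16 in R 4.3.3 (filterByExpr with a minimum count of 10, TMM, glmQLFTest, Benjamini-Hochberg threshold 0.05). DNFB and Caerulein libraries were fitted separately in the same way. Log2 fold changes are epidermis minus pancreas. Core markers too low for the filter were compared by exact permutation tests (2-sided) on log2(normalized CPM + 8.67), where 8.67 is 1 count of the median library. Of 20 library pairs within the control groups none was identical, and all differed beyond sampling noise (chi-square over its degrees of freedom 3.21 to 26.95). The statistics were tested on simulated data, with 200 of 661 genes changed by a log2 fold change of 3. The edgeR test recovered 63.5% of them with 4 false calls, and DESeq2 97.5% with 20. A gene that was not called may therefore still differ.

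Genes named are 20 core markers, the 8 largest differences per direction among called genes without overlap, and up to 3 members of each of 23 gene lists by level per kilobase. Others were named after their values were seen. The members and lists were chosen with earlier results of these data known. Of 391 list members 3 were not matched (Krt85, Trgc1 and Trgv5). Promoter windows are from RefSeq. Alternatives were other scalings, filters and tools (DESeq2 1.42.0, limma 3.58.1), a depth covariate, subsets of libraries and each library left out. The values of 1 list member are not reported here.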

Additional observations from a re-analysis of the deposited data

Results flagged for a closer look

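Dixon's test looked for a library far from the others in 90 groups of 5 libraries. The groups were each core marker, each list sum and 2 library shares, in each tissue. The test flagged 12 groups, where chance would flag about 4.5 among normally distributed values. A single count with 0 in the other libraries is always flagged, so the 12 cannot be read as an excess. Most of the flagged groups rest on 1 to 3 counts. Krt14 stood at 6.71 normalized CPM in PBS library 8 and Krt15 at 10.3 in PBS library 7, with 0 in the other PBS libraries. Acetone library 1 was flagged for Cela1, Prss2 and Ptf1a, each at 12.6 normalized CPM (1 count), and for Bhlha15 at 25.3, against at most 1.8 in the other Acetone libraries. Ins1 and Krt18 were each at 0.765 in Acetone library 12 and 0 in the others. Gcg was at 5.84 in Acetone library 3 and at 20.6 in PBS library 7, with 0 elsewhere. Krt8 was at 7.5 in Acetone library 2 and at most 1.53 in the other Acetone libraries.

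The ribosomal RNA genes of chromosome 17 took 0.627% of the counts of Acetone library 1 and 3.50% to 6.27% of the other Acetone libraries. Acetone library 1 was also the shallowest Acetone library, with 92640 usable counts. Whether depth bears on this was not tested.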

How the results depend on the processing

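No paired analysis was possible because the label numbers of the Acetone libraries (1, 2, 3, 11 and 12) and the PBS libraries (7, 8, 15, 16 and 17) share none. In the leave-one-out fits the genes higher in epidermis numbered 58 to 181 and those higher in pancreas 59 to 98. The genes tested in these control fits numbered 668 to 1179. Those seen again in the inflamed tissues numbered 8 to 34 and 37 to 45. DESeq2 called 976 and 423 of 40027 genes (epidermis first) and 125 and 81 again, edgeR without a filter 987 and 224 of 40027 and 171 and 73 again, and limma voom 179 and 174 of 661, with 21 epidermis genes again. The fit of all 20 libraries called 569 and 363 of 5020. Label numbers 1 to 10 gave 48 and 98 of 1480, and numbers 11 to 20 gave 906 and 452 of 1568. The numbers may or may not mark batches. Among alternatives added after seeing the data, Acetone libraries 1, 2 and 3 alone gave 27 and 57 of 707. Acetone libraries 11 and 12 alone gave 1784 and 1225 of 4779. Leaving out mitochondrial and ribosomal RNA genes, with Lars2 and mitochondrial pseudogenes of chromosome 1, left 7 epidermis genes seen again. The share of calls higher in epidermis was 59.1%, against 71.5% with library totals, 47.6% with the satellite-like genes kept and 49.7% with depth as a covariate. The cause was not tested.

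The digestive enzyme list, with 24 calls, had 23 to 28 under all alternatives. The cornified layer list had 19 calls with DESeq2 and with no filter, against 3. Some uncalled or weakly called genes changed sign. With label numbers 1 to 10 the log2 fold change was -1.55 for Cst3, -0.72 for Hspa5, -2.20 for Dcn, -0.010 for Eef1a1 and -1.95 for Rplp0. With numbers 11 to 20 it was 0.43 for Sparc and -1.25 for Hbb-bs. With depth as a covariate it was -0.10 for Cst3, -0.91 for Dcn and -0.71 for Rplp0, with limma voom 0.30 for Sparc and -0.20 for Hbb-bs, with Acetone libraries 1, 2 and 3 -0.80 for Dcn and -0.55 for Rplp0, and with Acetone libraries 11 and 12 -0.44 for Hbb-bs. In leave-one-out fits Hbb-bs ranged from -0.31 (without Acetone library 3) to 0.93, Sparc from -1.85 to 0.81 (without PBS library 8), and Dcn from -0.29 to 1.34, below 0 without PBS library 7, 15, 16 or 17. Krt5, Krt14, Krt15, Perp and every named acinar gene kept direction and call in all fits that tested them, while 16 other named genes lost theirs in 1 or more fits (Eef1a1, Far2, Soat1, Hba-a1, Hba-a2, Rrbp1, Gsn, Trp63, Elovl6, Rbpjl, mt-Nd1, CT010467.1, Vmn1r80, Fsip2, Foxp2 and Olfr659). At 69592 to 201611 usable counts per PBS library, a gene without counts in pancreas could still be expressed at a low level. The floor of 31.8 normalized CPM was used for such genes.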

Other observations

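Alpha and beta globin were not in the same proportion in both tissues. The summed counts of Hba-a1 and Hba-a2 divided by those of Hbb-bs and Hbb-bt were 0.591, 0.901, 1.20, 1.04 and 1.17 in the Acetone libraries and 12.1, 7.64, 13.8, 19.8 and 13.1 in the PBS libraries. The ranges did not overlap (2-sided exact permutation test of the log2 ratio, p = 0.00794, the smallest these libraries allow). The ratio is taken within a library, so scaling does not enter it. It was noticed in these data before it was tested. PBS library 16 had 32 beta globin counts, the fewest of the pancreas libraries.

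Lars2, a mitochondrial leucyl-tRNA synthetase whose annotation runs over 11089 bases of exon, had 31455, 18411, 18895, 23087 and 14881 normalized CPM in pancreas and 783, 878, 741, 548 and 457 in epidermis (log2 fold change -4.97 ± 0.75, adjusted p = 2.2e-05, edgeR). CT010467.1, a ribosomal RNA gene of chromosome 17, had 250589, 150156, 109586, 118786 and 123196 in pancreas and 4471, 27680, 30633, 18033 and 32935 in epidermis (log2 fold change -2.73 ± 0.62, adjusted p = 0.00253). Neither was called between the inflamed tissues (-1.59, adjusted p = 0.146, and -1.64, adjusted p = 0.0684). Lars2 was left out together with the ribosomal RNA genes in an alternative fit. Whether its counts came from its own transcripts was not tested. Slc30a4, a zinc transporter, had 1491, 939, 2011, 1177 and 2080 in pancreas and 164, 128, 193, 47.9 and 81.8 in epidermis (log2 fold change -3.67 ± 0.81, adjusted p = 0.00177).

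Genes better known from other tissues were also called higher in pancreas. Of 26 tested odorant and pheromone receptor genes 3 were called higher in pancreas, near the 10.1% of all tested genes, and none higher in epidermis. Vmn1r80, a pheromone receptor, had 154, 127, 344, 271 and 288 normalized CPM in pancreas and 63.1, 7.5, 81.7, 12 and 15.3 in epidermis (log2 fold change -2.85 ± 0.71, adjusted p = 0.0051). Fsip2, a sperm protein, had a log2 fold change of -2.71 (adjusted p = 0.00765), Foxp2, a transcription factor known from the brain and lung, of -2.63 (adjusted p = 0.00682) and Olfr659, an odorant receptor, of -2.71 (adjusted p = 0.00885). None of these 4 was called between the inflamed tissues, where the log2 fold changes were -0.34, -0.59, -0.41 and -0.23. Odorant and pheromone receptors together took 0.589% and 0.809% of the usable counts in Acetone libraries 11 and 12, 1.10% to 4.93% in Acetone libraries 1, 2 and 3 and 1.24% to 5.85% in the PBS libraries. The share is lowest in the libraries with the most usable counts. Its part in these calls was not tested.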
